A study of Mus musculus with 18 samples.

Results

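A set of 35 genes, of 55450 in the count table and 31919 with at least 1 count, was read at a far higher level in myotubes of 2 edited C2C12 clones than in control myotubes. The members were selected on measured values. Counts were divided by the library total and expressed per 1e6 counts (CPM), averaged over the 3 libraries of a group, and raised by 0.1. A gene was kept where the result was at least 5 in the myotubes of each clone and at least 8 times the control myotube value in each. The high clone levels and low control levels in myotubes are therefore the selection itself and carry no test here. Myoblast libraries took no part in the selection. The difference between the clones was not a criterion. In myotubes it is taken from the selected libraries, and it is limited because genes high in a single clone were left out.

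C2C12 is a mouse myoblast line that fuses into multinucleated myotubes when serum is withdrawn. Polyadenylated RNA was sequenced from 3 lines in 2 stages, with 3 libraries each, lettered A to C. The control (px) is a sorted, uncloned population that received the pX458 Cas9 vector alone. The overexpressor (clone 2-4) and the knockout (clone 2-7) each grew from a single cell after transfection with a pair of guides against the Meg3 proximal promoter, so each genotype is represented by 1 clone. Myoblasts were kept in medium with 10% fetal bovine serum. Myotubes were taken on day 3 after the change to 2% horse serum. All 3 lines carry whatever changes C2C12 itself carries. Nothing in the labels says that libraries A to C came from separate cultures, so the p-values measure the spread between these libraries, which may be technical.

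A muscle fibre gains its working parts stepwise. Myoblasts leave the cell cycle and fuse. Contractile proteins are then assembled into sarcomeres, the surface membrane acquires the channels that make it excitable, and the sarcoplasmic reticulum acquires the pumps and release channels that move calcium. Enzymes of energy supply and slow or fast isoforms of contractile proteins are switched on as the fibre matures. Meg3 is the leading gene of the maternally expressed noncoding RNA cluster in the imprinted Dlk1-Dio3 domain.

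Library totals ran from 41544358 to 79140702 counts. Meg3 had 0 counts in all control and all knockout libraries and 77.9 to 158 CPM in the overexpressor libraries, so the counts separate the overexpressor from the other lines but cannot check the knockout label against this control. Overexpressor myotube library C stood apart, with a chi-square per degree of freedom of 118 and 112 against its replicates over all genes, and so did myoblast library B of that clone, at 37.3 and 33.0. Knockout myotube libraries A and C gave 55.0 against each other, and 21.0 and 24.0 against library B. Summed over 8 myotube markers, control myotubes held 14832 to 15101 CPM, overexpressor myotubes 27054 to 29839 and knockout myotubes 35574 to 40805. In myoblasts the same sum was 1235 to 1448, 2455 to 3149 and 12920 to 15801 CPM. Markers of blood, endothelium, adipocytes, neurons and chondrocytes summed to at most 2.32 CPM in any library, and Epcam and Matn1 had 0 counts. The 5 osteoblast markers summed to 1.23 to 11.6 CPM. Dmp1 was the highest of them in every group, though near Alpl in control myotubes (0.911 and 0.706 CPM). It averaged 3.16, 1.15 and 10.1 CPM in control, overexpressor and knockout myoblasts. Of the epithelial markers Krt14 averaged 55.0, 120 and 11.7 CPM in the same groups. In control, overexpressor and knockout myotubes Krt14 averaged 13.8, 4.12 and 0.545 CPM, while Cdh1 rose in that order, at 0.637, 1.10 and 1.90. Krt8 and Krt18 averaged at most 0.128 CPM in any group. The part of these markers in the results was not tested.

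Across the 35 members the median level in myotubes was 1.15 CPM for control libraries, 26.6 for overexpressor libraries and 15.1 for knockout libraries. In myoblasts the corresponding medians were 1.19, 3.18 and 6.78 CPM. Per kilobase of merged exon, Ccn2 was the most abundant member in overexpressor myotubes at 122 CPM per kilobase and Actg2 in knockout myotubes at 227, while Tmc3 was the least abundant in the overexpressor at 0.557.

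**Figure D1:**
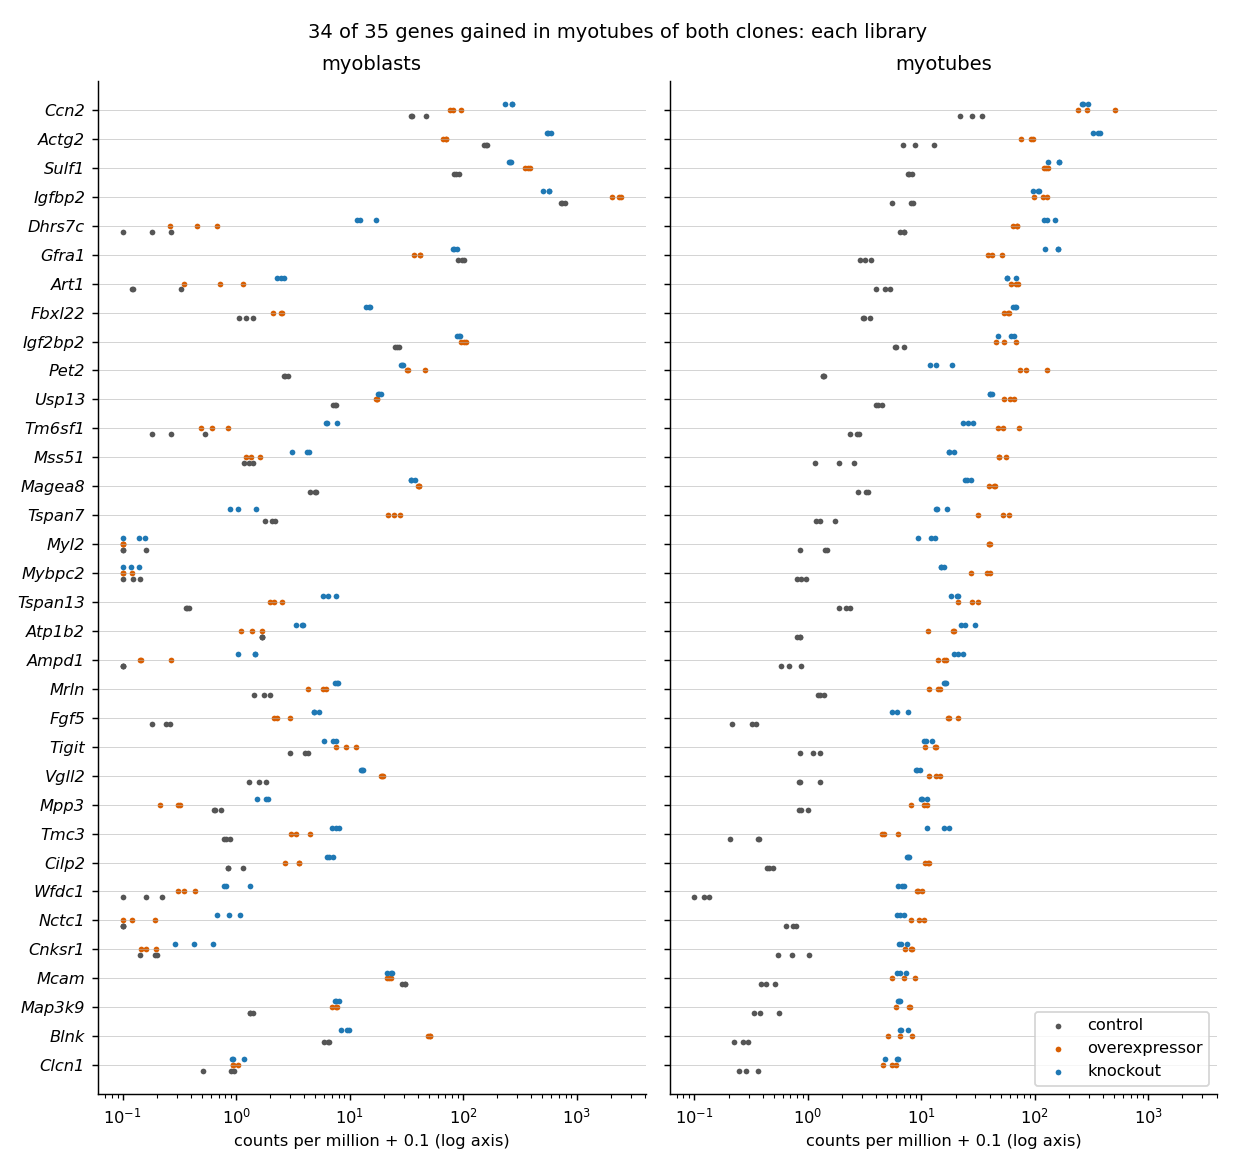
Level of 34 of the 35 members in every library, as CPM plus 0.1 on a log axis, with myoblasts on the left and myotubes on the right. Points are single libraries of the control (grey), overexpressor (orange) and knockout (blue), and in myotubes the 3 grey points of every gene shown lie to the left of the other 6, a gap that the selection asked for in the group means.

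By role, the members held 2 genes of the contractile apparatus, Myl2 and Mybpc2. Myl2 encodes the regulatory light chain of slow-twitch and ventricular myosin. Its myotube levels were 0.745, 1.37 and 1.32 CPM in the control, 40.5, 39.0 and 39.3 in the overexpressor and 12, 9.30 and 13.1 in the knockout. In myoblasts no library of any line had more than 3 counts. Mybpc2, the fast-fibre form of myosin-binding protein C, had 0.864, 0.705 and 0.777 CPM in control myotubes, 40.0, 27.2 and 38.0 in the overexpressor and 14.8, 14.8 and 15.8 in the knockout. Its myoblast libraries had at most 2 counts. Both genes were therefore near the lower limit of counting in myoblasts of every line. For both, the 3 lines occupied separate ranges in myotubes with the overexpressor highest. Overexpressor over knockout in myotubes, the log2 fold change was 1.69 ± 0.20 (SE) for Myl2 (adjusted p = 5.51e-06) and 1.11 ± 0.16 for Mybpc2 (adjusted p = 1.09e-05).

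At the surface membrane and the sarcoplasmic reticulum the members were Clcn1, Mrln, Dhrs7c and Atp1b2. Clcn1 is the chloride channel that stabilizes the resting potential of muscle. It was read at 0.186, 0.145 and 0.264 CPM in control myotubes, 5.43, 4.46 and 5.92 in the overexpressor and 6.06, 4.71 and 6.11 in the knockout. Its myoblast level was 0.412 to 1.06 CPM over all 9 libraries and passed the test in no comparison. Clcn1 shares 8.20% of its exon length with Fam131b on the opposite strand, which had 36000 counts in all against 2521 for Clcn1, and the strand setting of the counting is not given in the sources used here.

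Mrln encodes myoregulin, a small membrane protein that inhibits the calcium pump of the sarcoplasmic reticulum. Its levels were 1.14, 1.18 and 1.29 CPM in control myotubes, 14.4, 11.7 and 13.8 in the overexpressor and 15.6, 16.4 and 16.1 in the knockout. Already in myoblasts both clones were above the control, at 5.35 ± 1.01 CPM (SD, n = 3) in the overexpressor and 7.62 ± 0.265 in the knockout against 1.63 ± 0.273. The log2 fold change was 1.75 ± 0.15 (adjusted p = 2.55e-08) and 2.24 ± 0.15 (adjusted p = 5.27e-10).

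Dhrs7c is a dehydrogenase/reductase of the sarcoplasmic reticulum. In control myotubes it stood at 6.91, 6.41 and 6.86 CPM, in the overexpressor at 69.2, 69.9 and 64.4 and in the knockout at 120, 128 and 149. The knockout libraries were the highest in both stages. Its myoblasts had 12.2, 16.9 and 11.5 CPM where the control had 0.000, 0.082 and 0.165 and the overexpressor 0.349, 0.159 and 0.578. That knockout difference in myoblasts was the largest among members whose control libraries were not all at 0, with a log2 fold change of 7.41 ± 0.38 (adjusted p = 1.80e-10). Atp1b2, a beta subunit of the sodium pump, averaged 1.60 CPM in control myoblasts and 0.729 in control myotubes, and stood at 16.5 ± 4.52 in overexpressor and 25.3 ± 3.87 in knockout myotubes.

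The members on the list of muscle metabolism were Ampd1, Mss51 and Art1. Ampd1 is the muscle AMP deaminase of the purine nucleotide cycle. It had 0 counts in all 3 control myoblast libraries, 2 to 7 in the overexpressor and 50 to 72 in the knockout. Taking 3 counts per library as the floor, knockout myoblasts were at least 19.0-fold higher than the control. Its myotube levels were 0.762, 0.477 and 0.579 CPM in the control, 15.7, 13.9 and 16.5 in the overexpressor and 19.4, 21.0 and 23.3 in the knockout. Every knockout myotube library exceeded every overexpressor one.

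Mss51, a mitochondria-associated protein of fast muscle, was read at 1.05, 2.43 and 1.79 CPM in control myotubes, 47.9, 47.9 and 56.0 in the overexpressor and 17.2, 17.5 and 19.4 in the knockout. The order of the clones was the other way round in myoblasts, where the knockout had 3.02, 4.33 and 4.15 CPM and the overexpressor 1.13, 1.53 and 1.25. Art1 encodes an ADP-ribosyltransferase anchored to the muscle cell surface. Its myotube levels were 4.68, 5.19 and 3.89 CPM in the control, 71.0, 68.2 and 61.9 in the overexpressor and 56.5, 57.2 and 68.0 in the knockout. Here the ranges of the clones overlapped in myotubes, with a log2 difference of 0.04 ± 0.23 (adjusted p = 0.883), whereas in myoblasts the knockout was above the overexpressor in every library. Chrna10 shares 36.5% of the exon length of Art1 on the opposite strand and had 10 counts in all.

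Vgll2 was the member on the list of myogenic regulators, and Fbxl22 and Nctc1 are further muscle genes. Vgll2 is a muscle-enriched cofactor of TEAD transcription factors. In myoblasts it was higher in both clones, at 19.7, 19.1 and 19.0 CPM in the overexpressor and 12.8, 13.0 and 12.5 in the knockout. The control had 1.50, 1.73 and 1.20 CPM. The log2 fold change in myoblasts was 3.74 ± 0.15 (adjusted p = 9.23e-13) and 3.13 ± 0.15 (adjusted p = 5.99e-12). Its level was lower in myotubes than in myoblasts in all 3 lines, with ratios of 0.626, 0.682 and 0.720 for control, overexpressor and knockout.

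Fbxl22, an F-box protein of the Z-line that directs ubiquitin ligation, had 3.05, 3.42 and 2.96 CPM in control myotubes, 59.7, 58.1 and 53.3 in the overexpressor and 63.6, 67.0 and 68.1 in the knockout. In myoblasts it stepped from 1.13 ± 0.172 CPM in the control to 2.27 ± 0.221 in the overexpressor and 14.6 ± 0.600 in the knockout, with no overlap between any 2 lines. Herc1 on the opposite strand shares 8.06% of its exon length and had 101137 counts against 27356 for Fbxl22. Nctc1, a muscle noncoding RNA of the H19 and Igf2 region and the only member that is not protein-coding, had 0 counts in control myoblasts, 0 to 4 in the overexpressor and 25 to 52 in the knockout. That knockout level was at least 11.9-fold above the control at a floor of 3 counts per library. Its myotube levels were 0.542 to 0.678 CPM in the control, 8.05 to 10.6 in the overexpressor and 6.02 to 6.91 in the knockout.

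The promoter sequences of 3 of these muscle genes are shown. Each window ends at the base before the annotated gene start and holds a motif other than the E-box CANNTG. The windows of Mrln, Vgll2 and Mss51 end there too but hold no such motif, so the choice favours windows with motifs. RefSeq windows (GRCm38.p6) were available for 24 of the 35 members, as 26 windows, of which the 250 bases before the start were searched on both strands. The motifs were the E-box CANNTG, its CAGCTG form that overlaps it, the M-CAT element CATTCC that TEAD factors bind, the TATA box TATAAA, the MEF2 site and the CArG box of serum response factor. Capitals mark every match except CANNTG, and each run is written 5′ to 3′ on the strand of the gene.
Clcn1, chr6:42286435-42286684, plus strand: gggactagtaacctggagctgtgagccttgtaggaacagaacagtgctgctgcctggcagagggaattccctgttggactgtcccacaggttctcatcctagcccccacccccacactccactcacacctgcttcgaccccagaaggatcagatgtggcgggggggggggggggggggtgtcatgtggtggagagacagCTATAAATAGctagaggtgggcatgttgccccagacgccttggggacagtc
Art1, chr7:102101493-102101742, plus strand: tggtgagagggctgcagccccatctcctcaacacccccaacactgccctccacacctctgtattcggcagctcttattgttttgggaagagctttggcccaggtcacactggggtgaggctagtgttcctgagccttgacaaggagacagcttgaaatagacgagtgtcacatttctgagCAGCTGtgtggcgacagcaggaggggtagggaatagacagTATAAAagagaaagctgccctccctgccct
Fbxl22, chr9:66514594-66514843, minus strand: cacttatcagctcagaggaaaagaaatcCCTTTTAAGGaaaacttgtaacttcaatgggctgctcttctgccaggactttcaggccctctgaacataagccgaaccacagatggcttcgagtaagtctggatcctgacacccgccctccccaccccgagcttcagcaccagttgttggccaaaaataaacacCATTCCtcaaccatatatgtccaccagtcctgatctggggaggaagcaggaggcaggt
Positions are counted back from the gene start, with the base just before it at -1. In Clcn1 the capitals begin at -51 and hold a MEF2 site that contains TATAAA. In Art1 they mark CAGCTG at -70 and TATAAA at -30. In Fbxl22 they mark a CArG box at -222 and CATTCC at -58. Over all member windows the E-box was present in 80.8%, against 66.2% of all 32851 windows. CAGCTG was present in 23.1% against 13.0%, CATTCC in 15.4% against 12.6%, TATAAA in 11.5% against 12.4%, the MEF2 site in 7.69% against 2.92% and the CArG box in 3.85% against 1.47%. With 26 windows, 1 window is 3.85%, and a match is only a string of letters in the window.

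Secreted proteins, receptors and their binding partners followed a range of patterns. Ccn2, a matricellular protein known as connective tissue growth factor, was among the members with the highest levels per kilobase in myotubes of both clones. It stood at 21.8, 34.4 and 28.0 CPM in control myotubes, at 290, 512 and 242 in the overexpressor and at 295, 266 and 260 in the knockout. Overexpressor library B supplied the highest of these values. An antisense gene shares 23.2% of the exon length of Ccn2 and had 1165 counts against 186198. In myoblasts the lines were ordered control, overexpressor, knockout, at 39.0 ± 6.97, 84.4 ± 9.35 and 259 ± 20.2 CPM, and neither pair of neighbours overlapped.

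Sulf1, an endosulfatase that edits heparan sulphate at the cell surface, had 87.3, 92.5 and 82.5 CPM in control myoblasts, 374, 391 and 355 in the overexpressor and 263, 257 and 254 in the knockout. The log2 fold change over control was 2.13 ± 0.07 (adjusted p = 9.08e-14) and 1.59 ± 0.07 (adjusted p = 2.03e-12). All 3 lines had less Sulf1 in myotubes, but the control reached 7.46, 7.76 and 8.12 CPM while the overexpressor stood at 119 to 131 and the knockout at 132 to 165.

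Igfbp2 binds insulin-like growth factors in the medium. Its level was 729, 793 and 740 CPM in control myoblasts, 2456, 2036 and 2391 in the overexpressor and 567, 505 and 574 in the knockout. Every overexpressor library lay above the control, while the knockout lay below the control in every library (log2 fold change -0.43 ± 0.12, adjusted p = 0.00576). In myotubes the control had 5.42 to 8.36 CPM and the clones overlapped at 97.5 to 128 and 96.2 to 108. Igf2bp2, an RNA-binding protein that holds the Igf2 mRNA among its targets, stood at 101 ± 4.39 CPM in overexpressor and 91.2 ± 2.86 in knockout myoblasts against 26.0 ± 1.09 in the control. The difference between the clones did not pass (log2 0.16 ± 0.11, adjusted p = 0.247).

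Gfra1, the co-receptor for glial cell line-derived neurotrophic factor, differed from the genes above. Its control myoblasts held 97.5, 102 and 89.4 CPM, the overexpressor 41.6, 36.9 and 41.6 and the knockout 83.7, 81.1 and 88.1. The overexpressor was thus lower than the control in myoblasts (log2 fold change -1.23 ± 0.10, adjusted p = 1.91e-08), and the knockout difference did not pass (-0.17 ± 0.10, adjusted p = 0.176). On day 3 the control was at 2.80 to 3.47 CPM, the overexpressor stood at 38.9 to 50.8 and the knockout at 123 to 159.

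Fgf5, a fibroblast growth factor, was at 4 to 8 counts in the control myoblast libraries and at 2.38 ± 0.448 CPM in overexpressor and 4.91 ± 0.284 in knockout myoblasts. In myotubes its order between the clones was the opposite, at 17.2 to 21.1 CPM in the overexpressor and 5.43 to 7.57 in the knockout. Cilp2, a matrix protein related to the cartilage intermediate layer protein, changed order in the same way, from 3.18 ± 0.507 and 6.53 ± 0.415 CPM in myoblasts to 11.1 ± 0.491 and 7.51 ± 0.185 in myotubes. Wfdc1, a secreted protein with a whey acidic protein domain, had 0.000 to 0.034 CPM in control myotubes against 9.09 to 10.1 in the overexpressor and 6.10 to 6.98 in the knockout. It had the largest smaller fold of the 35 on the scale of CPM plus 0.1, 56.6, a value set by the offset because the control level was close to 0.

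Cell-surface and cytoskeletal members were Actg2, Mcam, Tspan7, Tspan13 and Mpp3. Actg2 is the gamma actin of visceral smooth muscle. It stood at 154, 159 and 162 CPM in control myoblasts, 71.3, 67.0 and 70.2 in the overexpressor and 594, 564 and 545 in the knockout, and at 6.81, 12.9 and 8.66, 75.9 to 97.2 and 327 to 377 CPM in the corresponding myotubes. The overexpressor was the lowest line in myoblasts and the middle line in myotubes. Of 4 smooth muscle markers Acta2, Smtn and Cnn1 were read and Myh11 was at most 0.139 CPM on average in any group. The summed level of the 4 was 4293 to 4411 CPM in control, 1568 to 1856 in overexpressor and 7410 to 7571 in knockout myoblasts, and 1713 to 2051, 4677 to 6075 and 6685 to 7256 CPM in myotubes. This sum was mostly Acta2, at 4122, 1528 and 7287 CPM in control, overexpressor and knockout myoblasts. It followed the same order of lines as Actg2 in both stages, and its part in the Actg2 result was not tested. Smtn did not share that order, at 190, 206 and 183 CPM in the same myoblasts and 144, 247 and 234 in myotubes. Cnn1 shared it in myotubes (0.225, 4.12 and 6.19 CPM) but not in myoblasts (31.4, 0.696 and 15.6). Reads shared between actin genes are a further uncertainty for Actg2.

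Mcam, the adhesion molecule CD146, showed the smallest myoblast differences among the members called in both clones, at 22.0 ± 0.888 and 22.5 ± 1.16 CPM against 30.0 ± 0.975 in the control. Without control library C these differences no longer passed, in the overexpressor (adjusted p = 0.051) or the knockout (adjusted p = 0.0525). Control myotubes had 0.288 to 0.415 CPM, 0.015 of the myoblast level, and the clones 0.322 and 0.292 of theirs. Tspan7, an X-linked tetraspanin, was at 27.9, 21.6 and 24.5 CPM in overexpressor myoblasts, 0.939, 0.778 and 1.38 in the knockout and 2.09, 1.98 and 1.70 in the control. The log2 overexpressor-over-knockout difference in myoblasts was 4.58 ± 0.27 (adjusted p = 4.38e-10), the highest value toward the overexpressor of any member. In myotubes the knockout was at 13.4 to 16.8 CPM and the overexpressor ranged from 31.7 to 59.0. Tspan13, another tetraspanin, and Mpp3, a scaffold protein of the membrane-associated guanylate kinase family, were both lower in overexpressor than in knockout myoblasts, with log2 differences of -1.60 ± 0.16 and -3.18 ± 0.23.

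Genes better known from other tissues made up much of the rest. Blnk, an adaptor of B-cell receptor signalling, was read at 51.0, 49.2 and 50.7 CPM in overexpressor myoblasts against 5.89, 6.32 and 6.44 in the control and 9.68, 8.30 and 9.35 in the knockout. Levels were lower in myotubes of every line, at 0.124 to 0.198 CPM in the control and 4.97 to 8.18 and 6.42 to 7.53 in the clones. Tigit, an inhibitory receptor of T cells and natural killer cells, had 13.2, 13.0 and 10.7 CPM in overexpressor and 10.4, 10.8 and 12.3 in knockout myotubes against 0.744 to 1.18 in the control. Of the blood markers, the pan-leukocyte marker Ptprc had at most 0.105 CPM on average in any group and Cd3e at most 0.015. The others were read in all 18 libraries, with group averages of 0.720 to 1.42 CPM for Cd68 and 0.142 to 0.681 for Csf1r. Their part in the levels of Blnk and Tigit was not tested.

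Pet2 and Magea8 are X-linked genes, the latter of a family expressed mainly in germ cells and tumours, and both have close family members with which reads could be shared. Pet2 stood at 2.74, 2.60 and 2.55 CPM in control myoblasts, 31.7, 45.7 and 32.6 in the overexpressor and 28.9, 29.2 and 28.1 in the knockout. In myotubes the overexpressor stood at 73.2, 83.5 and 127 CPM and the knockout at 18.5, 13.5 and 11.9, the largest myotube difference between the clones (log2 2.60 ± 0.19, adjusted p = 1.77e-08). Magea8 varied little between libraries of a group, at 4.35 to 4.91, 40.2 to 40.9 and 34.6 to 37.3 CPM in myoblasts and 2.68 to 3.28, 39.1 to 44.3 and 24.2 to 27.3 CPM in myotubes of control, overexpressor and knockout.

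Of the members outside the rule for named genes, Usp13, Tm6sf1, Tspan13, Tigit, Map3k9 and Cnksr1 are named after their values were seen. Usp13 is a deubiquitinating enzyme and was at 17.2 ± 0.325 and 18.2 ± 0.568 CPM in the clones' myoblasts against 7.35 ± 0.227. Tm6sf1, a lysosomal membrane protein, stood at 6.66 ± 0.859 CPM in knockout myoblasts against 0.549 ± 0.182 in the overexpressor, and at 25.7 ± 2.54 against 57.4 ± 13.1 in myotubes, and shares 20.6% of its exon length with Hdgfl3 on the opposite strand. Map3k9, a kinase of the stress-activated cascade, showed no difference between the clones that passed in either stage, at 7.36 ± 0.382 and 7.56 ± 0.331 CPM in myoblasts and 7.13 ± 1.07 and 6.28 ± 0.103 in myotubes (log2 differences -0.02 ± 0.13 and 0.08 ± 0.13). Tmc3, of the transmembrane channel-like family, reached 14.7 ± 3.18 CPM in knockout and 5.03 ± 0.957 in overexpressor myotubes, and 43.9% of its exon length is shared with an antisense gene. Cnksr1, a scaffold of Ras signalling, was at 0.526 CPM or less in every myoblast library.

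Whether the members already differed before the change of medium was asked in myoblasts, in an edgeR quasi-likelihood fit across 17912 genes with Benjamini-Hochberg adjustment at 0.05. All 35 passed the filter on low counts, and they could do so through the clone myotube libraries in which they were selected to be high. In the overexpressor 24 of the 35 were higher than the control and 4 were lower, against 20.7% and 19.7% of all genes tested. The 24 include Ampd1 at 2 to 7 counts and Nctc1 at 0 to 4 counts in the overexpressor libraries. With the filter and fit limited to the 2 groups compared, 27 members were tested, of which 19 were higher and 4 lower, against 3373 and 3759 of 15696 genes. Tspan7, Vgll2, Pet2 and Fgf5 were among the highest, Fgf5 with a log2 fold change of 4.22 ± 0.27 (adjusted p = 3.90e-10). The 4 lower members were Mpp3, Gfra1, Actg2 and Mcam, with Mpp3 at -1.62 ± 0.26 (adjusted p = 6.74e-05). Of these 28 calls, Mcam was lost without control library C or overexpressor library B (adjusted p = 0.051 and 0.0549), Dhrs7c without overexpressor library C (adjusted p = 0.0699), Tm6sf1 without any of 4 libraries (up to adjusted p = 0.119) and Nctc1 without any of 4 (up to adjusted p = 0.287). The median log2 fold change of the members was 1.75 against 0.02 over all genes. It was 1.70 over 32 members when the 2 genes whose control was all at 0 were set at their bound and 3 at the floor were left out.

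In knockout myoblasts 28 members were higher than the control and 3 were lower, against 26.4% and 26.6% of all genes. Limited to the 2 groups, 31 members were tested, of which 26 were higher and 4 lower, against 5422 and 5728 of 16160 genes. The 3 lower members were Tspan7, Igfbp2 and Mcam, at -0.86 ± 0.29 (adjusted p = 0.0181), -0.43 ± 0.12 (adjusted p = 0.00576) and -0.38 ± 0.13 (adjusted p = 0.0171). Without knockout library A only Igfbp2 passed, with adjusted p = 0.0568 for Tspan7 and 0.0718 for Mcam. Tspan7 was also lost without control library A (adjusted p = 0.0543) or knockout library B (adjusted p = 0.0813), and Mcam without control library C (adjusted p = 0.0525). Among the higher members, Dhrs7c, Fgf5 and Tm6sf1 had the largest log2 fold changes after Ampd1 and Nctc1, at 7.41 ± 0.38, 5.26 ± 0.25 and 4.88 ± 0.32. The median was 2.24 against 0.02 over all genes, and 2.62 over 33 members with the genes at 0 at their bound. Both clones were compared with the same 3 control libraries, and the knockout myoblasts had the summed myotube markers of 12920 CPM or more given above, whose part in these differences was not tested.

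**Figure D2:**
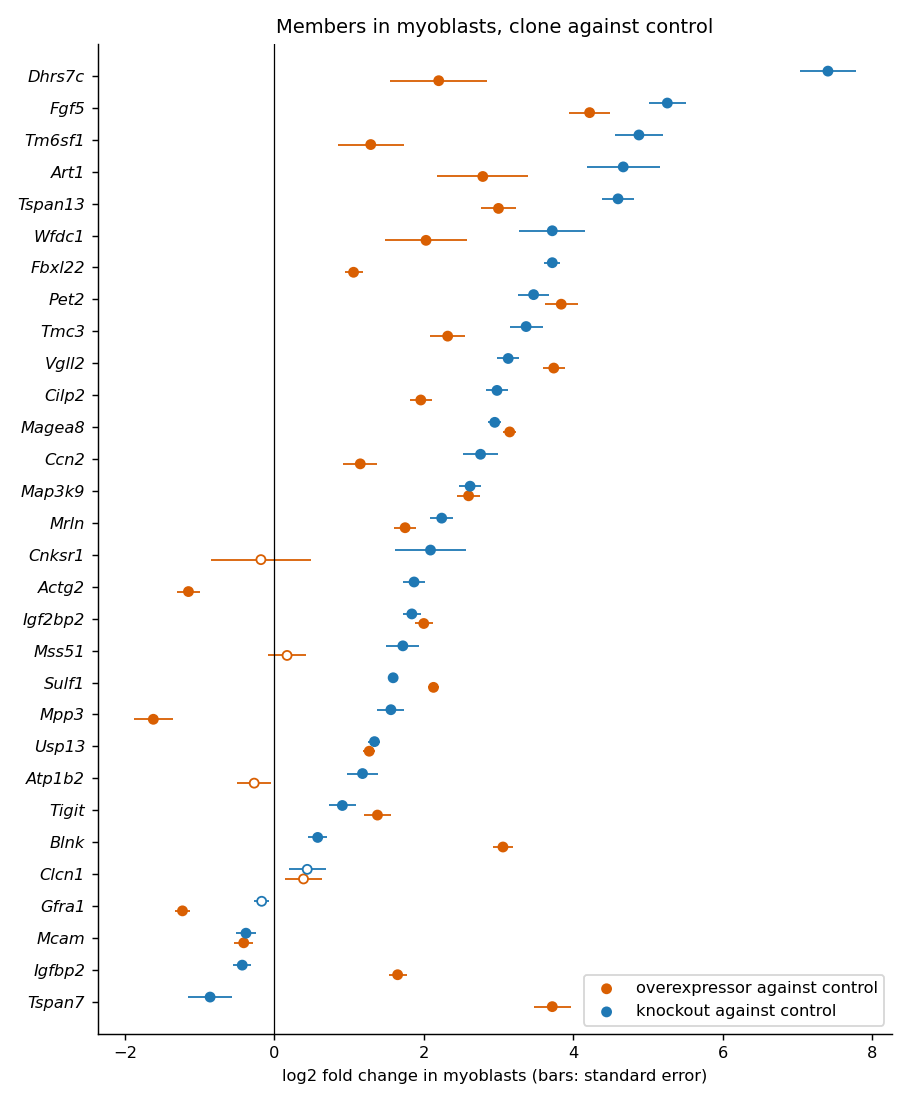
Log2 fold change of 30 members in myoblasts, overexpressor (orange) and knockout (blue) each against the control, with standard errors as bars; filled points passed the test and open points did not. The 5 members with a group at or near 0 counts are left out, and most points lie to the right of 0, while Tspan7, Igfbp2, Actg2 and Mpp3 passed on opposite sides for the clones.

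For description the members were also split by their level in control myoblasts. The 19 with at least 1 CPM there included the muscle genes Mrln, Mss51, Vgll2 and Fbxl22, and the 16 below included Myl2, Mybpc2, Dhrs7c, Ampd1, Art1, Clcn1 and Nctc1. A low control level leaves little room for a lower clone level, so calls against the control are not compared between these classes.

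The clones themselves differed in myoblasts, mostly toward the knockout. Summed myotube markers were 12920 to 15801 CPM in knockout myoblasts, against 2455 to 3149 in overexpressor myoblasts and 14832 to 15101 in control myotubes. Their part in these differences was not tested. In myoblasts 20 members were lower in the overexpressor than in the knockout and 7 were higher, against 26.9% and 25.7% of all genes, and the median log2 difference was -1.06 against -0.02. With the filter and fit limited to the 2 groups, 31 members were tested, of which 18 were lower and 9 higher, against 4758 and 4799 of 15843 genes. Dhrs7c (-5.21 ± 0.30), Nctc1 (-4.28 ± 0.46) and Ampd1 (-3.84 ± 0.36) had the lowest values among called members. The 7 members higher in the overexpressor were Tspan7, Blnk, Igfbp2, Vgll2, Sulf1, Tigit and Magea8, all but Tspan7, Blnk and Igfbp2 by less than 1 on the log2 scale. Magea8 and Tigit were lost on leaving out most single libraries, at adjusted p from 0.0504 to 0.128 for Magea8 and from 0.0625 to 0.173 for Tigit. Of the 16 members low in control myoblasts, 13 were lower and 0 were higher in the overexpressor. Of the 19 others, 7 were lower and 7 higher. No share over all genes at such control levels was taken, so this split is only described. Of 62 sarcomere genes that are not members, 53 were lower and 4 higher in the same comparison.

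In myotubes the shares of members called between the clones were near those of all genes. The overexpressor was higher for 11 and lower for 10, against 30.6% and 29.1% of all genes, and the median difference was 0.05 against 0.02. The selection used these libraries and left out genes high in a single clone, which limits the difference between the clones. The shares of all genes had no such limit, so the comparison with them is only described. Pet2, Myl2 and Tspan7 (1.61 ± 0.21) were the highest in the overexpressor, and Actg2 (-2.10 ± 0.15), Gfra1 (-1.84 ± 0.10) and Tmc3 (-1.65 ± 0.18) the lowest. Mrln was lost without overexpressor library B, knockout library B or knockout library C (adjusted p = 0.093, 0.0523 and 0.0556). For 14 members, among them Ccn2, Igfbp2, Art1 and Clcn1, the difference did not pass, which does not show that their levels were equal.

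**Figure D3:**
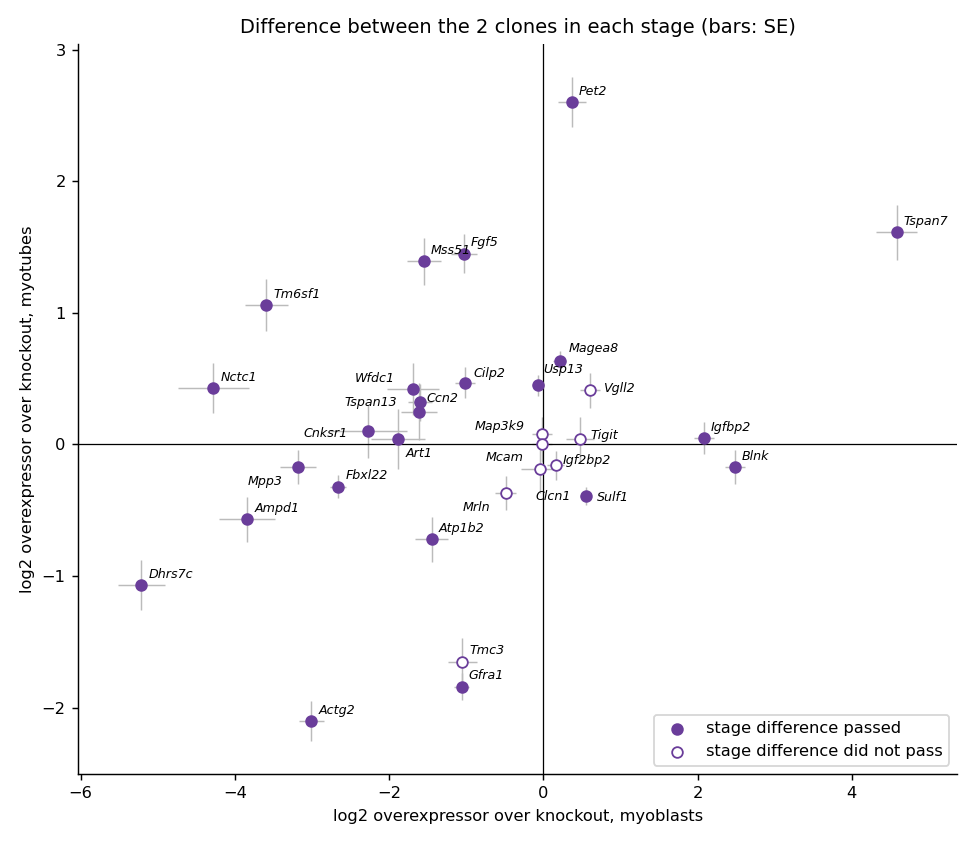
Log2 overexpressor over knockout in myoblasts (horizontal) and in myotubes (vertical) for 32 members, with standard errors as bars; filled points are members whose difference changed between the stages by the test. Tm6sf1, Mss51, Fgf5 and Cilp2 lie in the upper left and Sulf1 in the lower right; these 5 passed in both stages with opposite signs.

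A test of the change in this clone difference between stages was added after the values were seen. It passed for 25 of the 35 members (71.4%), against 46.7% of all genes tested. The clone myotube libraries enter this test, and the selection required both clones to be high in them. The excess over all genes is therefore not read as a result about the members. Of the 20 members higher in knockout myoblasts, 9 were also higher in knockout myotubes, 7 no longer passed and 4, Mss51, Fgf5, Tm6sf1 and Cilp2, were higher in overexpressor myotubes. For Dhrs7c the difference went from -5.21 in myoblasts to -1.07 in myotubes (change 4.15 ± 0.37, adjusted p = 3.72e-07). Mrln, Vgll2, Map3k9 and Mcam had changes within -0.19 and 0.12 that did not pass.

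The ratio of myotube to myoblast level in each line is described without a test because the selection used the myotube libraries. In the control 11 members were at least 2-fold higher in myotubes and 13 at least 2-fold lower, on the scale of CPM plus 0.1, against 11% and 16.2% of all genes. The overexpressor had 22 higher and 4 lower (12.2% and 13.7% of all genes) and the knockout 19 higher and 2 lower (8.45% and 18%). The median ratio was 0.694, 4.12 and 2.22 in control, overexpressor and knockout.

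The split by control myoblast level uses the lower term of the control ratio, and the selection fixed a low upper term, so the control ratios of the classes are largely set by these choices. Of the 19 members with at least 1 CPM, 10 were at least 2-fold lower in control myotubes and 1, Fbxl22, was at least 2-fold higher, with a median ratio of 0.488. Igfbp2, Mcam, Gfra1, Blnk, Actg2 and Sulf1 had the lowest control ratios, 0.010, 0.015, 0.033, 0.042, 0.060 and 0.090. In the overexpressor these ratios were 0.050, 0.322, 1.09, 0.131, 1.27 and 0.337, and in the knockout 0.189, 0.292, 1.74, 0.753, 0.624 and 0.596. The clone ratio was below 1 for 4 of the 6 in the overexpressor and 5 in the knockout. In bulk RNA, fewer cells holding a transcript and less transcript per cell cannot be told apart.

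Most of the 16 members low in control myoblasts were higher in myotubes of every line. The number at least 2-fold higher was 10 for the control line, 15 for the overexpressor and 13 for the knockout, with median ratios of 5.93, 50.1 and 7.22. Dhrs7c had a control ratio of 37.4, an overexpressor ratio of 147 and a ratio of 9.73 in the knockout, whose myoblasts were the highest. For Art1 they were 24.6, 90.5 and 24.6. The 6 members short of 2-fold in the control were Clcn1, Tmc3, Cilp2, Wfdc1, Fgf5 and Mpp3, with ratios of 0.379, 0.379, 0.490, 0.732, 1.29 and 1.33. Where myoblast libraries were at or near 0, as for Ampd1, Nctc1, Myl2 and Mybpc2 in the control, the ratio depends on the offset.

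**Figure D4:**
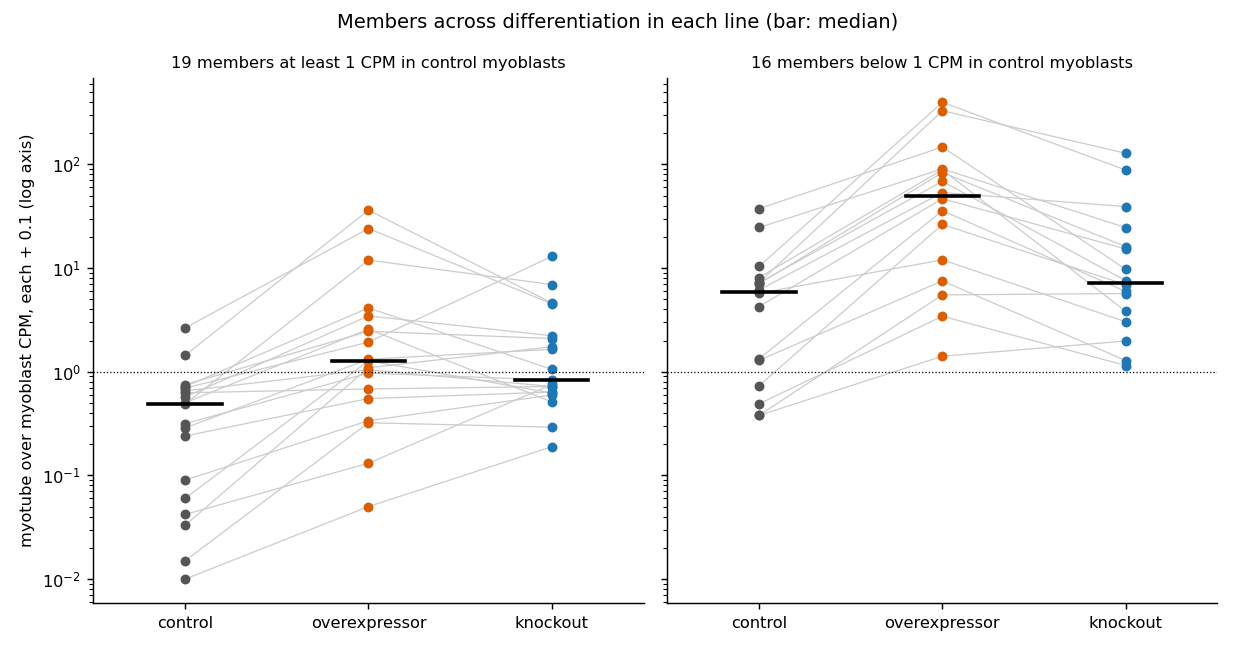
Ratio of myotube to myoblast level (CPM plus 0.1, log axis) in each line, joined by gene, for the 19 members with at least 1 CPM in control myoblasts (left) and the 16 below (right); black bars are medians. The control median lies at 0.488 on the left and at 5.93 on the right, and the overexpressor median is the highest in both panels.

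Other genes of the same muscle programmes give the setting of the members. These lists were written with earlier results of these data known, and the counts leave the members out. Against 26.2% of all genes higher and 30.9% lower in overexpressor than control myotubes, and 31% and 37% in knockout myotubes, 48 of 62 sarcomere genes were higher and 5 lower in the overexpressor and 52 and 5 in the knockout. Of 33 genes of excitation-contraction coupling 24 were higher and 5 lower in the overexpressor and 25 and 3 in the knockout, and of 37 genes of muscle metabolism 27 and 6, and 29 and 4. The median log2 fold changes were 1.03, 0.95 and 1.25 in the overexpressor and 1.43, 1.19 and 1.26 in the knockout. Of 20 neuromuscular junction genes 15 were higher and 2 lower in the overexpressor and 15 and 3 in the knockout. Of the other lists that hold a member, the myogenic regulators shared this direction and the growth factor and matrix lists did not. Of 36 myogenic regulators 19 were higher and 7 lower in the overexpressor and 19 and 9 in the knockout. Of 146 growth factors, cytokines and their inhibitors, the list of Ccn2, Fgf5 and Igfbp2, 35 were higher and 80 lower in the overexpressor and 38 and 83 in the knockout. Of 119 collagens, matrix proteins and matrix enzymes, the list of Cilp2, 22 were higher and 75 lower, and 27 and 75. Of 125 ion channels 40 were higher and 50 lower, and 57 and 43. Of 190 germline and X-linked testis genes, the list of Magea8, whose symbol pattern was corrected after its matches were seen, 59 were higher and 31 lower, and 63 and 40.

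In myoblasts 20.7% of all genes were higher and 19.7% lower in the overexpressor, and 26.4% and 26.6% in the knockout. Of the 62 sarcomere genes 55 were higher and 2 lower in knockout myoblasts with a median log2 fold change of 4.83, and 32 were higher and 10 lower in the overexpressor with a median of 0.78. Between the clones 53 sarcomere genes were lower and 4 higher in overexpressor than knockout myoblasts. Of the 33 coupling genes 26 were higher and 2 lower in the knockout and 18 and 4 in the overexpressor, and of the 37 metabolism genes 21 and 5, and 7 and 9. The 36 other myogenic regulators had 25 higher and 3 lower in the knockout and 21 and 5 in the overexpressor. Of 20 neuromuscular junction genes, none of them a member, 17 were higher and 2 lower in knockout myoblasts and 11 and 5 in the overexpressor.

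At the limits of the selection, Magea8 lay just inside at 8.20-fold in the knockout, and Tmc3 and Clcn1 at 5.03 and 5.27 CPM in the overexpressor. Just outside were Tppp3 and Tnik, at 7.93-fold and 7.89-fold in the knockout, and Glipr1 at 4.83 CPM in the overexpressor. The members lay on 15 chromosomes, with 5 on chromosome 7 and 3 on X (Pet2, Magea8 and Tspan7), and none was within 1 Mb of another.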

How the data were processed

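Whole-number counts per gene were deposited by the authors for 18 polyA libraries. Per the submitters' processing notes the tools were FastQC 0.11.7, STAR 2.7.9a, featureCounts of Subread 2.0.3 and DESeq2 1.32.0, with build mm10. Their settings, strand and annotation release are not given in the sources used here. Symbols and positions were taken from GENCODE M21 (GRCm38), which held 55190 of the 55450 IDs. A table of variance-stabilized values was not used. The values of 1 member are not reported here, though it enters the counts and medians. The members, gene lists and tests were chosen with earlier results of these data known. Counts were fitted with edgeR 4.0.16 (R 4.3.3) in 1 quasi-likelihood model with a coefficient per group, TMM factors (0.895 to 1.08), filterByExpr and 12 residual degrees of freedom. Adjusted p-values are Benjamini-Hochberg over 17912 genes, called at 0.05. The standard error is the log2 fold change divided by the square root of F. Levels are CPM on library totals, and 3 counts correspond to 0.0379 to 0.0722 CPM, which covers counting error only. Named genes were the 10 members highest in clone myotubes, the 10 with the largest smaller fold, the 3 called members at each end of each comparison, the muscle-list members, and the 3 genes nearest each side of the limits. Only the comparison of overexpressor with control myoblasts was checked on simulated counts. These were drawn with 1 dispersion for all genes and groups, unlike the data, so the check does not extend to the other comparisons.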

Additional observations from a re-analysis of the deposited data

Results flagged for a closer look

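For 5 members the difference between the clones was called in opposite directions in the 2 stages, and the change between stages itself passed (edgeR interaction term, adjusted over all genes, added after the values were seen). The clone myotube libraries in this term took part in the selection. The term passed for 46.7% of all genes tested, and the share of all genes with such opposite calls was not taken. The count of 5 is therefore not read as a result about the members. The value given is the log2 overexpressor-over-knockout difference in myotubes minus that in myoblasts. For Sulf1 it was -0.94 ± 0.10 (SE, adjusted p = 5.29e-07): the overexpressor was higher in myoblasts and lower in myotubes, in every library of each stage. The other 4 went the other way. The change was 4.66 ± 0.35 for Tm6sf1 (adjusted p = 3.71e-08), 2.94 ± 0.28 for Mss51 (adjusted p = 3.43e-07), 2.49 ± 0.23 for Fgf5 (adjusted p = 1.16e-07) and 1.49 ± 0.18 for Cilp2 (adjusted p = 2.86e-06), with no overlap between the clones in either stage. In a test against a 2-fold change (glmTreat) each of the 5 lost the call between the clones in at least 1 stage: Sulf1 (adjusted p = 1 in both) and Cilp2 (adjusted p = 0.992 and 1) in both stages, Fgf5 in myoblasts (adjusted p = 0.961), and Tm6sf1 and Mss51 in myotubes (adjusted p = 0.926 and 0.0631).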

How the results depend on the processing

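Of 140 results of single members, 52 changed their side of the threshold under at least 1 setting, 44 of them under a test against a 2-fold change (glmTreat). Under that test 17 members were higher and 0 lower in overexpressor myoblasts, against 618 and 894 of all 17912 genes, and 24 and 0 in knockout myoblasts, against 1086 and 939. Between the clones 3 were higher and 12 lower in overexpressor myoblasts, against 873 and 1254, and 4 and 3 in overexpressor myotubes, against 654 and 749. Leaving out 1 library gave 1 to 3 members lower in knockout myoblasts, the lowest without knockout library A, where Mcam and Tspan7 no longer passed (adjusted p = 0.0718 and 0.0568). The selection held 112 genes at 4-fold, 10 at 16-fold and 21 where every clone library had to meet the limits against every control library. An offset of 0.5 CPM lost 9 members, TMM-scaled CPM lost Magea8, and leaving out 1 library at a time lost at most 2. With the replicate letter as a replicate block the calls were 24 higher and 4 lower, 28 and 3, 7 and 20, and 11 and 10, as without it. The letters gave no pairing common to all groups: same-letter deviations correlated from -0.80 to 0.674, over 0.1 in 15 of 45 pairs. Control and overexpressor myotubes were positive for every letter (0.199, 0.402 and 0.662). Control and overexpressor myoblasts were negative for every letter (-0.608, -0.454 and -0.109). Pairing within some groups was therefore not settled. Of 1804 values of single members, 1697 kept their side of the threshold, 91 lost it, 16 gained it and 0 reversed. In overexpressor myoblasts Nctc1 and Tm6sf1 rest on at most 4 and 31 counts per library. Each lost its call without some single libraries.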
